A study of Caenorhabditis elegans with 2 samples.

Results

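Translation factors and aminoacyl-tRNA synthetases of Caenorhabditis elegans were examined for regions recovered with NHR-76, a nuclear hormone receptor that acts as a transcription factor. The genes were taken by symbol, a choice made with earlier results of these data known. The rule took protein-coding genes named eif, eef, iff, ife or ifg with a number. It also took those named by 1 letter for an amino acid followed by ars and a number. This gave 71 of 19985 protein-coding genes, of which 39 encode initiation factors, elongation factors or eIF5A and 32 encode synthetases. The assay was ChIP-seq, chromatin immunoprecipitation in which DNA recovered with an antibody against a protein is sequenced, here NHR-76 fused to enhanced green fluorescent protein (eGFP). The material was whole L4 larvae of mixed sex from strain OP203, which carries unc-119(ed3) III and the transgene insertion wgIs203, in 1 group of 2 biological replicates. Every sample carried the tagged receptor, and the state of the native nhr-76 gene and the cells that express the transgene are not given in the labels. Expression was not measured, so the whole-larva label could not be set against markers, and weak binding in many cells and strong binding in few cannot be told apart.

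Protein synthesis starts when initiation factors bring the initiator tRNA and an mRNA to the small ribosomal subunit and find the start codon. Elongation factors then carry charged tRNAs to the ribosome and move it along the mRNA, and aminoacyl-tRNA synthetases charge each tRNA with its amino acid. These genes are used by nearly all cells, and growing larvae depend on them heavily.

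The promoter window of each gene ran from 1000 bp before to 200 bp after its annotated 5′ end on the ce11 build, and a region counted when its summit, the point of its highest signal, lay inside. The 4 lists on this build were a called list of 319 peaks, a pooled list of 13052 regions, and 26700 and 24791 regions of replicates 1 and 2. Mitochondrial DNA held 31 of the called peaks, 30 of the pooled regions, and 27 and 31 of the replicate regions. These were ranked together with the nuclear regions. Regions were ranked by the signal value that the authors' processing gave, with rank 1 the strongest. The scale of that value is not stated, so it orders regions within 1 list only. The pooled and replicate lists were deposited as peaks together with background, so a low rank there may be background. No read counts were used, and the depth behind each region is unknown. Positions are given in bp from the 5′ end, negative upstream. No sample without the tagged receptor was used, and whether these regions would be recovered without it was not tested.

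The called list marked the promoters of 5 of the 71 genes, against 1.05% of all protein-coding genes (210 of 19985). They were iff-2, eef-1A.1, eif-3.C, eef-1A.2 and eef-1G. All 5 encode initiation factors, elongation factors or eIF5A, and none of the 32 synthetase genes had a called summit. With 1.05% of all genes called, 32 genes are too few to read a lack at synthetases from this. No test was run on these counts, since the genes are not replicates of a condition. The called list was made from the replicate lists, so good replicate ranks at its peaks mostly follow from how it was made, although the peak at eef-1G had no replicate region. The 2 replicates ranked the iff-2 region alike, near the top of each list, and placed those of eef-1A.1 and eef-1A.2 lower. At eif-3.C they differed, with rank 722 in replicate 1 and rank 78 in replicate 2, the latter close to that of iff-2 (69).

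The DNA at 4 of these summits is printed here because it is the sequence recovered at the called promoters, and that of eif-3.B is added because both replicates placed it among their 1000 strongest regions although it was not called. Each stretch was read from the WBcel235 genome, which is the ce11 sequence, on the strand of the gene, from at most 200 bp around the summit and ending before the gene's 5′ end. Capitals mark GAGAGA on either strand, the one of 5 searched motifs found in these stretches. They lie at chrII:8561368-8561525 (minus strand) for iff-2, chrIII:6971990-6972189 (minus) for eef-1A.1, chrX:7823096-7823295 (plus) for eef-1A.2, chrV:10965599-10965718 (plus) for eef-1G and chrII:14795017-14795216 (plus) for eif-3.B.
iff-2: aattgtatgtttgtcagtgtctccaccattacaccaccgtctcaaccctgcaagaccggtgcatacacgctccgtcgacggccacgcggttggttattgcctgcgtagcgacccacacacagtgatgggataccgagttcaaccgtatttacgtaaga
eef-1A.1: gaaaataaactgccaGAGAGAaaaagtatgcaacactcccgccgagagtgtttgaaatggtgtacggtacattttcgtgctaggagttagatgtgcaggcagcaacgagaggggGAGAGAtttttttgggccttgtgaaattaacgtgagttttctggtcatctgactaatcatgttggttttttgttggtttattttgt
eef-1A.2: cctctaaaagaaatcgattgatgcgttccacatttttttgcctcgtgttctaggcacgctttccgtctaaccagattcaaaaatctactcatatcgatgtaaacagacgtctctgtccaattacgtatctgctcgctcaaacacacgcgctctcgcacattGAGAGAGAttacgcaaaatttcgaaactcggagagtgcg
eef-1G: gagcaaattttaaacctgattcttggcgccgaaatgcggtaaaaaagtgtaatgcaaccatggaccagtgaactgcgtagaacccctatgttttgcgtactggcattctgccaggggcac
eif-3.B: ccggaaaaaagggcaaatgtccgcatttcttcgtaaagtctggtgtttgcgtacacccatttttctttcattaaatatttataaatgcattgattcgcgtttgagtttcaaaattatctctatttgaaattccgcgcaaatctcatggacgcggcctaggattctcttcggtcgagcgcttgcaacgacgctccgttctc

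The motif CACGTG, an E-box, as well as the element AAGGTCA and the related words AAGTCA and also AGTGCA, of the kind nuclear receptors bind, were in none of the 5 windows of 200 bp at the called summits, searched on both strands; none of the 5 words contains another. At the 154 called nuclear promoter summits of all genes they were in 11.7%, 1.95%, 8.44% and 8.44% in the same order, and 5 windows are too few to set against such shares. GAGAGA was in 2 of the 5 windows, those of eef-1A.1 and eef-1A.2, and in 40.9% of those 154 windows. Among the 38 pooled regions in the windows of these genes, CACGTG occurred in 0, AAGGTCA in 0, AAGTCA in 5, AGTGCA in 3 and GAGAGA in 6. Among 3934 pooled promoter regions of all genes the shares were 4.75%, 1.4%, 8.26%, 7.68% and 18.5% in the same order. Some regions lie in the windows of more than 1 gene, and a motif match is not a bound site.

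The strongest region lay at iff-2 (WBGene00002065, chromosome II, 8559375 to 8561367, minus strand), 1 of 2 genes for eIF5A, a factor that helps the ribosome through difficult peptide bonds. Its called summit, 59 bp upstream of the 5′ end, had rank 55 of 319 (signal value 136), and the pooled region had rank 60. Replicate 1 placed it at rank 59 (signal value 72.9) and replicate 2 at rank 69 (50.5), with summits 24 bp apart. As a share of each list these ranks were 0.221% in replicate 1 and 0.278% in replicate 2. The same summit lay at -876 bp of the divergent gene F54C9.14. A weaker pooled region in the iff-2 window, at -710 bp, ranked 11927. In C. elegans iff-2 serves the soma and its paralog iff-1 the germline. The window of iff-1 held no summit in any of the 4 lists, and the called summit nearest to its 5′ end lay 18402 bp away.

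Both genes for eEF1A, the factor that delivers charged tRNAs to the ribosome, had called summits, at similar ranks in both replicates. At eef-1A.1 (WBGene00001168, chromosome III, 6970026 to 6971712, minus strand) the called summit had rank 162 (signal value 77.0), 378 bp upstream. The region ranked 272 in replicate 1 (signal value 35.5) and 200 in replicate 2 (31.0). That summit sat in the 540 bp between eef-1A.1 and the divergent gene rfc-4, a subunit of the clamp loader of DNA replication, and was closer to rfc-4, at -163 bp. When each summit was given only to its nearest gene, eef-1A.1 was therefore not among the called genes. At eef-1A.2 (WBGene00001169, chromosome X, 7823654 to 7825769, plus strand) the called summit had rank 222 (signal value 67.7), 458 bp upstream. Its region ranked 461 in replicate 1 (signal value 29.2) and 386 in replicate 2 (24.1), and no other protein-coding gene had this summit in its window.

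At eif-3.C (WBGene00001226, chromosome I, 9976426 to 9979662, minus strand), a subunit of eIF3, the large complex that joins mRNA to the small ribosomal subunit, the replicates put the region at unlike ranks. The called summit, 241 bp upstream, had rank 170 (signal value 76), and the pooled region rank 168. Replicate 1 gave rank 722 (signal value 25) and replicate 2 rank 78 (46.2), although the 2 summits were 1 bp apart. As a share of each list, the ranks were 2.70% and 0.315%, an 8.57-fold gap, so the place recurred more closely than its strength. The summit lay in the 400 bp between eif-3.C and the 3′ end of sys-1, a beta-catenin gene on the same strand.

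At eef-1G (WBGene00008920, chromosome V, 10965719 to 10967922, plus strand), the gamma subunit of the complex that reloads eEF1A with GTP, the called peak had no counterpart in the other lists. The peak (10965514 to 10965883) had rank 266 (signal value 62.9), with its summit at -20 bp of eef-1G and -160 bp of the divergent gene ctf-4. The nearest summits lay 3750 bp away in the pooled list, 3750 bp in replicate 1 and 3821 bp in replicate 2. Of the 319 called peaks, 2 had no pooled and no replicate summit within 200 bp, and the other one was mitochondrial. The called list was derived from those 3 lists per the texts deposited with the samples, and why this peak is in the called list was not tested. Counted over called peaks with a pooled summit within 200 bp, a setting chosen after seeing the data, 4 of the 71 genes were called, against 1.04% of all genes (208). The lists used here may be incomplete, so "no summit" in the following means none among the regions analysed, and the pooled and replicate counts cover those regions.

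**Figure D1:**
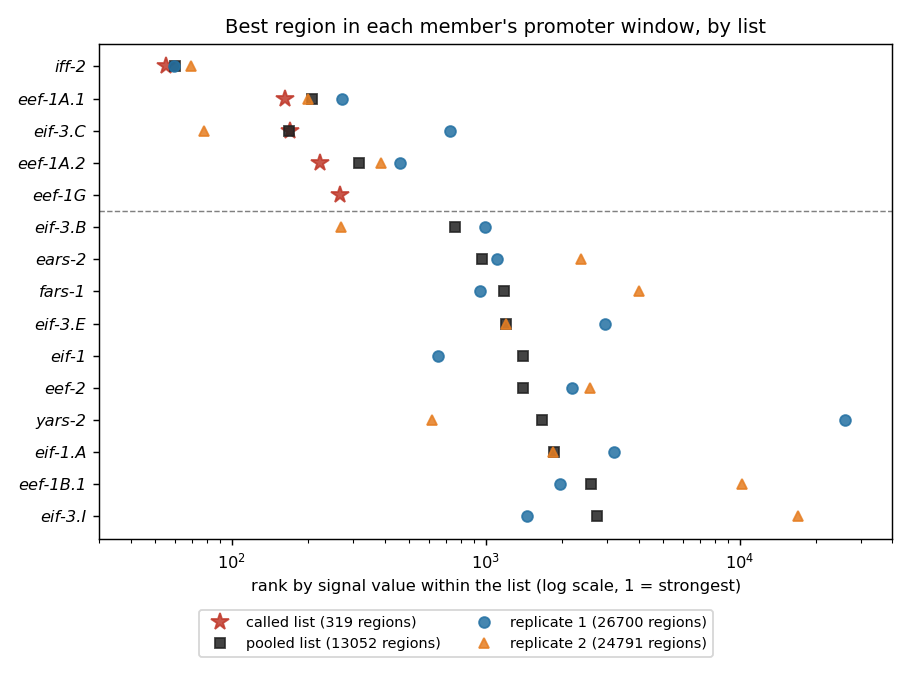
Rank of the best region in the promoter window in each list (x axis, log scale, 1 the strongest) for the 5 genes with a called summit, above the dashed line, and the 10 others with the best pooled ranks. The 4 symbols of iff-2 lie between ranks 55 and 69, eef-1G has a called rank only, and yars-2 has replicate ranks of 25968 and 615.

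Outside the called list, the best pooled region lay at eif-3.B, another subunit of eIF3. It had pooled rank 757 (signal value 38.9), rank 990 in replicate 1 (22.1) and rank 270 in replicate 2 (27.4), with summits 292 and 240 bp upstream. This made eif-3.B, beside iff-2, eef-1A.1, eif-3.C and eef-1A.2, the 5th gene whose window held 1 of the strongest 1000 regions of both replicates. That was 5 of 71 genes, against 1.46% of all genes (291). Widening to the strongest 2000 of both replicates added none (5 of 71, against 2.41%), and 5000 gave 10 (against 4.43%), with ears-2, eef-2, eif-1.A, eif-3.E and fars-1. Within the strongest 500 of both there were 3, eef-1A.1, eef-1A.2 and iff-2 (against 0.946%), and within the strongest 319 there were 2, eef-1A.1 and iff-2 (against 0.671%). With the 319 strongest regions of replicate 1 alone standing in for called peaks, 2 genes were marked, eef-1A.1 and iff-2, against 1.04% of all genes (207). With those of replicate 2 alone 4 were, with eif-3.B and eif-3.C, against 1.04% (208).

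The next ranks were held by 2 synthetase genes. At ears-2, which encodes a glutamyl-tRNA synthetase and had the best pooled rank of the synthetases, 964, replicate 1 gave rank 1104 and replicate 2 rank 2365. This summit lay at -45 bp of ears-2 and -47 bp of uncp-18, in a gap of 91 bp, and cannot be assigned to either gene. At fars-1, a phenylalanyl-tRNA synthetase, the region ranked 1183 in the pooled list, 951 in replicate 1 and 4022 in replicate 2, with its pooled summit at -932 bp, in an exon of T08B2.15, and at -110 bp of rbm-5.

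Initiation and elongation factors filled most of the ranks that followed. The eIF3 subunit eif-3.E ranked 1199 in the pooled list, 2960 in replicate 1 and 1206 in replicate 2. The region of eef-2, the GTPase that moves the ribosome along the mRNA, ranked 1404 in the pooled list and was placed alike by replicate 1 (2189) and replicate 2 (2580), at -30 bp of eef-2 and also in the window of the divergent gene clsp-1. For eif-1.A, which keeps the scanning ribosome open, the pooled rank was 1856, with 3194 in replicate 1 and 1835 in replicate 2. As shares of the lists, the replicate ranks differed 2.28-fold at eif-3.E, 1.27-fold at eef-2 and 1.62-fold at eif-1.A.

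For the remaining 4 of the 10, the region was strong in 1 replicate only. The window of eif-1, a start codon selection factor, held a region at pooled rank 1403 and replicate 1 rank 649, and none in replicate 2; its pooled summit lay at -27 bp of vps-24 and at -391 bp of eif-1. The region of yars-2, a tyrosyl-tRNA synthetase, ranked 1668 in the pooled list, 25968 in replicate 1 and 615 in replicate 2. For eef-1B.1, an exchange factor for eEF1A, the ranks were 2597 in the pooled list, 1956 in replicate 1 and 10193 in replicate 2, and for eif-3.I they were 2750, 1450 and 16993. The pooled and replicate 1 summits of eif-3.I lay at -890 bp, in an intron of abtm-1. The best replicate 2 summit lay elsewhere, at -225 bp. A weaker replicate 2 summit of eif-3.I, rank 23620, lay at -786 bp, 104 bp from that of replicate 1.

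**Figure D2:**
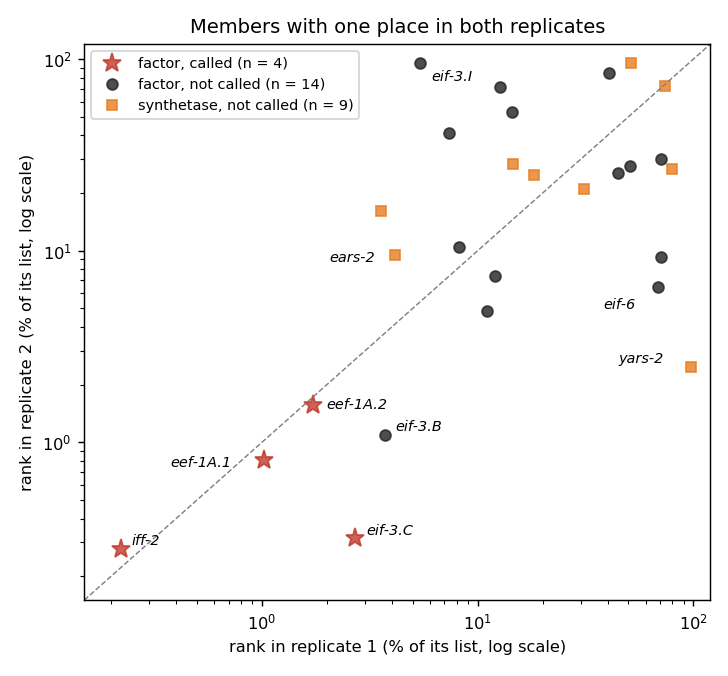
Rank in replicate 1 (x axis) and replicate 2 (y axis), each as a percentage of its list on a log scale, for the 27 genes with summits of both replicates within 200 bp. The dashed line marks equal ranks, stars mark called genes, and eef-1G has no replicate summit and is not shown; iff-2 lies lowest at 0.221% and 0.278%, while yars-2 lies at 97.3% and 2.48%.

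Over all 71 genes, replicate 1 had a summit in the windows of 43 (against 34.8% of all genes) and replicate 2 in those of 41 (against 32.4%). Both replicates had one for 32 genes (45.1%, against 17.9% of all genes), only replicate 1 for 11 (15.5%, against 16.9%) and only replicate 2 for 9 (12.7%, against 14.5%). In 27 of the 32 (84.4%), summits of both replicates lay within 200 bp of each other, at a median distance of 60 bp, against 71.5% of all genes with both and a median of 55 bp. Their ranks, as shares of the lists, were within 2-fold for 12 of the 27 (44.4%, against 43.5% of all such genes) and over 5-fold apart for 7 (25.9%, against 21.8%). Agreement in rank between the replicates was thus near that of all genes. The pooled list had a summit for 33 genes, which was 46.5% of them, against 21.3% of all genes. Of these 33, 4 were called, against 4.89% of all genes with a pooled summit (208 of 4252). The median rank of the best pooled region was 24.9% of the list for these 33 genes and 36.3% for all genes with one, with 22.0% and 37.4% in replicate 1 and 25.4% and 40.4% in replicate 2.

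By role, the called and strongest regions were spread over a few complexes. The 2 genes of eEF1A were both called. Of the other elongation genes, eef-1G was called, eef-2 and eef-1B.1 had regions in the pooled and both replicate lists, and eef-1B.2 had one in the pooled list (rank 3332) and in replicate 2 (1742). Of 11 eIF3 subunits, 6 had a pooled summit, against 21.3% of all genes, and 1 was called, against 1.05%. Pooled ranks were low for eif-3.H (11176) and eif-3.J (6585). Only replicate regions were found at eif-3.F, eif-3.G and eif-3.K, and eif-3.D and eif-3.L had none. The 3 subunits of eIF2, which carries the initiator tRNA (eif-2alpha, eif-2beta and eif-2gamma), had no summit in any list. Only 49.5% of all genes had a summit in at least 1 list, and 3 genes are too few to read a lack from.

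The exchange factor of eIF2, eIF2B, had pooled regions for 3 of its 5 subunits, against 21.3% of all genes. Pooled ranks were 4082 for eif-2Bdelta, 5480 for eif-2Bbeta and 7585 for eif-2Balpha. As shares of the list these were 31.3%, 42.0% and 58.1%, against a median of 36.3% for all genes with a pooled region. Only replicate regions were found at eif-2Bepsilon (11882 and 6286), and eif-2Bgamma had none. Of the cap-binding eIF4E genes, ife-3 (pooled rank 4989) and ife-4 (8280) had pooled regions, ife-5 had a region in replicate 1 only (20481), and ife-1 and ife-2 had none. The scaffold gene ifg-1, for eIF4G, had a region in replicate 2 only (10261). Of the single factors, eif-2D (3254) and eif-6 (4362), which keeps the large ribosomal subunit from joining early, had pooled regions, and eif-2A and eif-4A3, a helicase of the exon junction complex, had none.

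Among the 32 synthetase genes, 12 had a pooled summit (37.5%, against 21.3% of all genes). Replicate 1 had a summit for 21 (65.6%, against 34.8%) and replicate 2 for 17 (53.1%, against 32.4%). None had 1 of the strongest 2000 regions in both replicates, against 2.41% of all genes. At that share, 32 genes are too few to read a lack of such regions from. Besides ears-2, fars-1 and yars-2 the pooled ranks were 2753 for nars-1, 3139 for aars-1, 3322 for iars-2, 3872 for vars-1, 5530 for kars-1, 6092 for qars-1, 9733 for lars-1, 12070 for cars-1 and 12932 for wars-1. The last of these is close to the end of the list of 13052. At iars-2, isoleucyl-tRNA synthetase, replicate 2 held a region of rank 504, but its summit was 999 bp upstream, in an exon of C25A1.16 and within the window of nola-3, while the replicate 1 region (rank 5401) lay 319 bp upstream. Regions in replicate lists only were found at aars-2, dars-2, mars-1 and yars-1 in both, at ears-1, fars-2, pars-2, rars-1, sars-1 and tars-1 in replicate 1, and at fars-3, nars-2 and sars-2 in replicate 2. The best of these ranks was 2344, for nars-2 in replicate 2, 197 bp downstream of the 5′ end. No summit was found for dars-1, gars-1, hars-1, iars-1, lars-2, pars-1 or rars-2. The annotation used does not say which synthetases work in the cytosol and which in mitochondria, and the genes were not split by that.

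**Figure D3:**
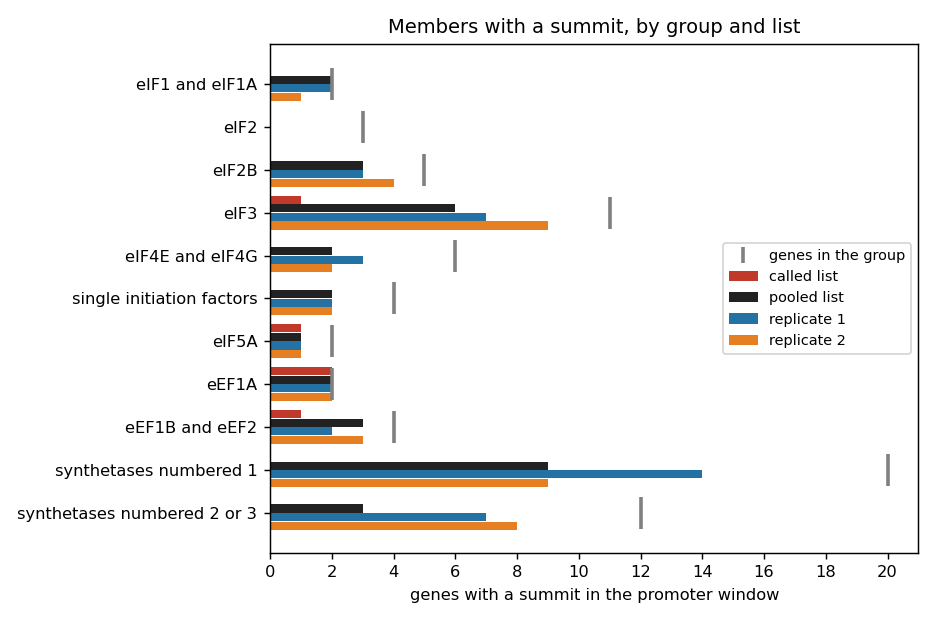
Number of genes with a summit in the promoter window (x axis) for each group of genes and each of the 4 lists (bars), with the number of genes in the group as a grey mark and the synthetases split by the number in their symbol. Called bars appear for eIF3, eIF5A, eEF1A and for eEF1B with eEF2, and no bar appears for the 3 eIF2 genes.

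In all, 53 of the 71 genes (74.6%) had a summit in at least 1 list, as did 49.5% of all genes, and 18 had none. For those 18 the nearest pooled summit lay 1724 to 9057 bp from the 5′ end, with a median of 3480 bp. Among the 33 genes with a pooled region the best summit lay at a median of -261 bp from the 5′ end (quartiles -457 and -99 bp) and none lay downstream, against a median of -296 bp for all genes (quartiles -576.25 and -120 bp), of which 445 of 4252 lay downstream. The best pooled summit was intergenic for 30 of the 33 genes. That share was not computed for all genes, and most of the window lies upstream of the gene. For 19 of the 33 (57.6%) the best pooled summit also lay in the window of another gene, against 29.9% of all genes with a pooled summit. The genes themselves are often arranged head to head: 30 of the 71 (42.3%) had a divergent protein-coding gene within 1000 bp upstream, against 17.2% of all genes. Of those 30, 3 were called, against 2.07% of all divergent genes, and of the 13 with no gene within 1000 bp upstream 1 was called, against 0.823%. The share of summits that belong to the neighbouring gene was not tested.

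**Figure D4:**
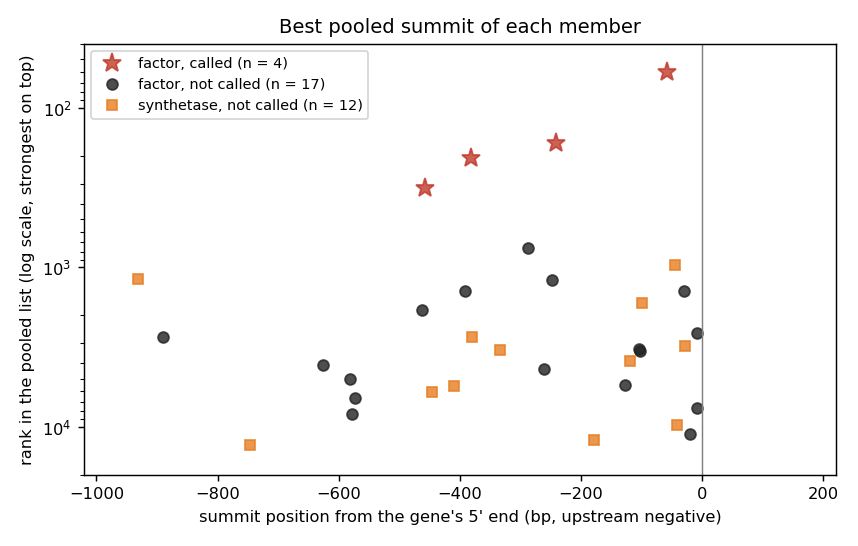
Best pooled summit of each of the 33 genes with one, by its position from the gene's 5′ end (x axis, bp, upstream negative) and its rank in the pooled list (y axis, log scale, strongest on top). The stars are the 4 called genes with a pooled region, all within 500 bp upstream, and no synthetase ranks above 964.

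Base content was compared at the summits. Median GC over 200 bp was 44.0% at the 5 called summits and 42% at the 154 called nuclear promoter summits, and 36.2% and 34.0% in the pooled list. None of the 5 called summits lay in sequence masked as repeats, against 18.2% of the 154. At that share, 5 summits are too few to read a lack from. Of the 38 pooled summits 42.1% lay in masked sequence, against 39.7%. The pooled summit of eif-3.B was in masked sequence. Masked sequence can collect reads from repeats, and its part in the pooled ranks was not tested.

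Other genes of translation outside the naming rule were looked up from a list. Of 17 symbols listed, 16 were found in the annotation. Of these, 10 had a pooled summit (62.5%, against 21.3% of all genes) and 1 was called (6.25%, against 1.05%). The called gene, drr-2, encodes a protein related to the helper eIF4H. Its called summit had rank 65, 127 bp upstream, and its region ranked 58 in replicate 1 and 137 in replicate 2. The eIF2 kinase gene pek-1 ranked 600 in the pooled list, 628 in replicate 1 and 571 in replicate 2, the release factor gene erfa-3 983, 1467 and 2047, and gcn-1, a partner of another eIF2 kinase, 1075, 1299 and 1470. The eIF4A helicase gene inf-1 had a pooled rank of 1741 and no replicate 2 region. Of the genes without a pooled region, egl-45 (rank 7899) and tsfm-1 (14952) had one in replicate 1 only. Both replicates had one for gfm-1 (3091 and 2126) and tufm-1 (24936 and 23945). The genes pab-1 and let-363 had no summit in any list.

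Ribosomal protein genes gave higher shares than the translation factors and synthetases. Called promoters made up 7.04% of the 71 genes, 16.7% of 78 ribosomal protein genes and 8.51% of 47 chaperonin, prefoldin and proteasome genes. Among all genes the called share was 1.05%. The strongest 1000 regions of both replicates reached 7.04% of the 71, 26.9% of the ribosomal and 10.6% of the chaperonin, prefoldin and proteasome genes. Within the 71, the split was 12.8% for the 39 factors and 0% for the 32 synthetases, against 1.46% of all genes. With the strongest 5000 of both, the factors reached 20.5% and the synthetases 6.25%, against 4.43% of all genes. The synthetase shares rest on 32 genes and lie near those of all genes. Median pooled ranks cover only the genes with a pooled summit. They were 24.9% of the list for 33 of the 71 genes and 7.92% for 50 of the 78 ribosomal genes. For 20 of the 47 chaperonin, prefoldin and proteasome genes the median was 22.2%. These differences between groups of genes were not tested.

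**Figure D5:**
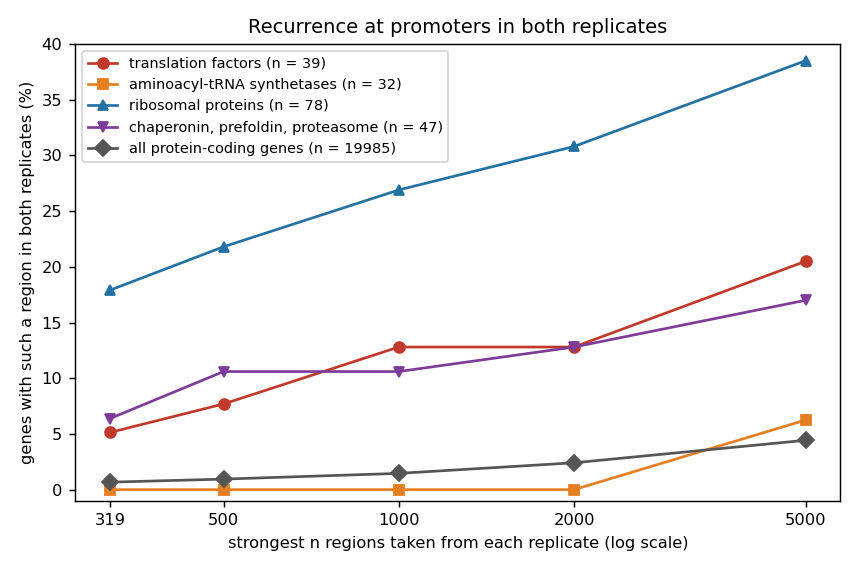
Percentage of genes (y axis) whose promoter window held 1 of the strongest n regions of both replicates, for n from 319 to 5000 (x axis, log scale), in 5 groups of genes. At n = 1000 the 39 translation factors lie at 12.8%, the 32 synthetases at 0%, the ribosomal protein genes at 26.9% and all protein-coding genes at 1.46%.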

How the data were processed

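Per the texts deposited with the samples, the authors made the pooled and replicate lists, named peaks and background, from the alignments with 1 further file, and derived the called list from them by the irreproducible discovery rate. The sources used here name no peak caller, aligner or threshold. The signal value in the deposited lists, a score of unstated scale, was used only for ranks, and equal values shared the better rank. The 4 lists on ce10 were not used, since no annotation of that build was used and no positions were converted.

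Genes came from Ensembl release 115 on WBcel235, with the 5′ end of the gene, and sequence from RefSeq's copy of that assembly. Windows, ranks and motifs were computed with Python 3.11.15 and pandas 2.3.3. Window placement was checked on simulated summits. All counts are descriptions without a test. Every gene with a called summit and the next 10 by pooled rank were described in full, the rest by group. The genes, groups and motifs were chosen with earlier results of these data known. Alternatives changed the window, the 5′ end, the assignment of shared summits, the list and the rank limit.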

Additional observations from a re-analysis of the deposited data

How the results depend on the processing

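The counts of genes with a pooled or replicate summit stayed within 1.5 times their values with windows of 500 or 2000 bp, the 5′ end of any transcript, the nearest gene only, and overlap of the whole region in place of the summit. Under these settings 4 to 6 of the 71 genes were called. The 2000 bp window added eif-6 (6, against 1.4% of all genes), and the nearest gene only left out eef-1A.1 (4, against 0.821%). Among the 159 strongest called peaks, 1 gene was called, iff-2, against 0.5% of all genes (100). When the top 319 regions of a single replicate stood in for called peaks, the count was 4 without replicate 1 (eef-1A.1, eif-3.B, eif-3.C and iff-2) and 2 without replicate 2 (eef-1A.1 and iff-2), against 1.04% of all genes in each. Without replicate 2 the median rank of the best region was 22.0% of the list, and without replicate 1 it was 25.4%. With the strongest 500 regions of both replicates, 3 genes had a recurring region (eef-1A.1, eef-1A.2 and iff-2). The cause of these shifts was not tested. No paired analysis was possible because the design has 1 group. With no counts in the lists, depth sets no limit that can be stated.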

Other observations

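2 features of the genes were looked up after their values were seen and are given as values only. Small nucleolar RNAs (snoRNAs), which guide chemical changes of ribosomal RNA, lie inside iff-2, eef-1G, fars-1 and eif-4A3 on the same strand. Of these 4 genes 2 were called, iff-2 and eef-1G, and of the other 67 genes 3 were. Over all protein-coding genes, 6.92% of 159 snoRNA hosts and 1.0% of the rest were called. Of the hosts, 3 of 13 ribosomal protein genes and 6 of 142 genes that are neither ribosomal nor of the 71 were called (4.23%). The called peak of eef-1G has no pooled or replicate region near it, and without it 1 of the 4 hosts was called.

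In C. elegans, closely spaced genes on 1 strand are often transcribed together as operons. A gene on the same strand ended within 500 bp upstream for 17 of the 71 genes. Of these 17, 4 had a pooled summit (23.5%) and 1, eif-3.C, was called, and of the other 54, 29 had a pooled summit (53.7%) and 4 were called. Among all genes the shares with a pooled summit were 21.9% with such a neighbour and 21.1% without, and the called shares were 0.876% with one and 1.09% without. The contrast was narrower in the other lists. Replicate 1 had a summit for 41.2% of the 17 and 66.7% of the 54, against 36.8% and 34.4% of all genes. Replicate 2 had one for 47.1% and 61.1%, against 33.4% and 32.1%. At least 1 list had one for 64.7% and 77.8%, against 52.1% and 49.0%. Operon membership itself was not given in the annotation used.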
